A study of Mus musculus with 4 samples.

Results

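The genes described here mark the unfolded protein response and the amino-acid stress response, and were followed in mouse thymocytes exposed to a glucocorticoid. They are Herpud1, Ddit3, Atf3, Atf4, Atf5, Xbp1, Ppp1r15a, Asns, Trib3 and Chac1. All probe sets whose single gene symbol in the platform annotation is one of these 10 names were taken. They were 12 probe sets for 9 genes, of 8251 genes with such a probe set. Chac1, which encodes an enzyme that breaks down glutathione, had none, so its expression was not analysed here. RNA came from CD4+CD8+ double-positive thymocytes, a stage of T cell development at which both coreceptors are present, sorted with microbeads from female C3H/HeN mice 4 weeks of age. The cells were kept for 3 h in 3 ml of medium at 5.0E+06 cells per ml. One group received 1E-07 M dexamethasone, a synthetic glucocorticoid, in PBS, and the control group received medium with 0.1% PBS. Each group had 2 arrays, described in the series design as technical replicate extracts, so p-values measure the spread between extracts and not between mice or cultures.

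The unfolded protein response is set off when misfolded proteins build up in the endoplasmic reticulum. Its sensors are Ire1, which splices Xbp1 mRNA, Perk, which phosphorylates the translation factor eIF2, and Atf6, which is cut in the Golgi to release a transcription factor. Shortage of amino acids acts on eIF2 through the kinase Gcn2, and both routes raise translation of Atf4, whose targets include Atf3, Ddit3, Trib3, Chac1, Asns and Ppp1r15a. Thymocytes are a classical model of cell death caused by glucocorticoids, and the series title asks about pro- and anti-apoptotic molecules in these cells. Ddit3, also called CHOP, and Trib3 are known as mediators of death in prolonged endoplasmic reticulum stress.

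The start of Herpud1 is shown because this gene carried the one change among the members. The 250 bases before its annotated start, from RefSeq in build GRCm38.p6, lie at chr8:94386179-94386428 on the plus strand. Capitals mark, from 5′ to 3′, a match on the reverse strand to the C/EBP-ATF response element (CARE), TGATGNAA, and a match to the type II endoplasmic reticulum stress response element (ERSE-II), searched as ATTGG and CCACG with 1 base between them.
Herpud1: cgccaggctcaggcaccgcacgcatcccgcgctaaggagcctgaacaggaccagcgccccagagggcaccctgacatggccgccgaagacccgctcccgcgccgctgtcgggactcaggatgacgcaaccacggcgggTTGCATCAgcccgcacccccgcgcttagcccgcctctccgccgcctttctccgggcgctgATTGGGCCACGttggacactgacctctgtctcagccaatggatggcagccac

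CARE is the site type known to be bound by Atf4 with C/EBP proteins, and ERSE-II is a site type of Atf6 and Xbp1. Windows of 250 bases before the start were searched on both strands in all members, 11 windows in all because Atf5 has a second start. ERSE-II was found in 1 member window, that of Herpud1, 52 to 42 bases before the start, against 0.0304% of 32851 windows of all genes. CARE was found in 4 member windows, those of Herpud1, Atf3, Chac1 and Asns, against 3.45% of all windows. CARE and ERSE-II were searched as known site types of these pathways, so their matches in members are no independent finding. The CARE matches of the other 3 genes are shown in capitals with their flanks for comparison with Herpud1. They lie at chr1:191183420-191183459 (minus strand), chr2:119351033-119351072 (plus strand) and chr6:7693210-7693248 (minus strand) in GRCm38.p6.
Atf3: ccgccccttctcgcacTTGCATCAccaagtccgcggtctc
Chac1: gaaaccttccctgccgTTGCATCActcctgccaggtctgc
Asns: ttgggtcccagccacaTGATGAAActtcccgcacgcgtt

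Atf3, Chac1 and Herpud1 carry the match TGATGCAA on the reverse strand, and Asns carries TGATGAAA on the forward strand. The cAMP response element TGACGTCA was found in 1 member window, that of Ppp1r15a, against 1.55% of all windows. The first type of endoplasmic reticulum element (ERSE), CCAAT and CCACG with 9 bases between them, was found in 0 member windows and 0.113% of all windows. In Herpud1 a stretch that begins 18 bases before the start and runs 1 base past it differs from ERSE in 1 of its 10 fixed letters, as does a stretch in the 300 bases around the start, or a full match, in 1.5% of all windows. A glucocorticoid response element, GNACA and TGTNC with 3 bases between them, was found in 0 member windows and in 0.387% of all windows. No 2 of these motifs overlapped in a member window. These matches describe letters in short windows and say nothing of binding.

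Values are MAS5 signals on a linear scale in arbitrary units, and differences are of log2(signal + 1), dexamethasone minus medium. Probe sets for bacterial and yeast transcripts, which the cells lack, reached at most 14.0, and signals at or under that were read as background. The median of these 19 probe sets over the arrays was 1.85, so the cutoff is their highest value and not their usual level. The arrays had median signals of 21.1 to 22.8. The actin control, whose 3′ to 5′ ratio reflects how intact the RNA is, had ratios of 1.15 and 1.06 in the medium group against 1.40 and 1.24 in the dexamethasone group. The same ratio of the Gapdh control overlapped between the groups, at 0.838 and 0.845 in medium and 0.904 and 0.823 with dexamethasone. The 9 hybridization controls were 1.37-fold higher with dexamethasone, and scaling to them moves the median difference of all genes from 0.00 to -0.45. Differences are given at the deposited scaling unless another is named. All 7 markers of double-positive thymocytes were above background, with summed signals of 8737 and 8972 in medium and 8479 and 9339 with dexamethasone. Cd8a, a coreceptor chain that defines these cells, read 2502 and 2411 in medium and 2585 and 2345 with dexamethasone. The other CD8 chain gene, Cd8b1, was lower on both dexamethasone arrays (2138 and 1993 against 1648 and 1626), and the recombinase gene Rag1 was higher on both (2131 and 2098 against 2929 and 2347), moves that offset each other in the sum. Of 6 epithelial and stromal markers, 5 were at or under 14.0 on every array, among them Krt5, Krt8 and Krt18, which encode keratins, and none was at 0. Their signals summed to 27.0 and 32.2 in medium, against 54.4 and 51.9 with dexamethasone, most of it from Col1a1, a collagen gene, at 16.5 and 18.4 against 33.5 and 38.2. The summed signal of 4 B cell markers was 131.1 and 134.2 in medium and 160.7 and 136.4 in dexamethasone samples. The sums of 5 myeloid markers (47.0 to 72.4) and of 3 erythroid markers (100.5 to 134.1) overlapped between the groups. The part of RNA integrity and of these cells in the results below was not tested. In RNA from many cells, fewer cells of a type and less RNA per cell cannot be told apart.

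Herpud1 rose about 2-fold and was, at the deposited scaling, the one member to change. It encodes a membrane protein of the endoplasmic reticulum with a ubiquitin-like domain that takes part in degradation of misfolded proteins. Its signal was 221.3 and 212.2 in medium, against 420.9 and 464.0 after dexamethasone. Both dexamethasone arrays lay well above both medium arrays, and the arrays of each group lay close together. The means were 217 ± 6.43 and 442 ± 30.5 (SD, n = 2), a 2.03-fold difference. On the log2 scale the difference was 1.02 ± 0.08 (SE), with a 95% interval from 0.83 to 1.22 (limma adjusted p = 0.00251). By size this was rank 48 of the rises among 5582 genes tested. The call rests on 1 probe set.

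**Figure D1:**
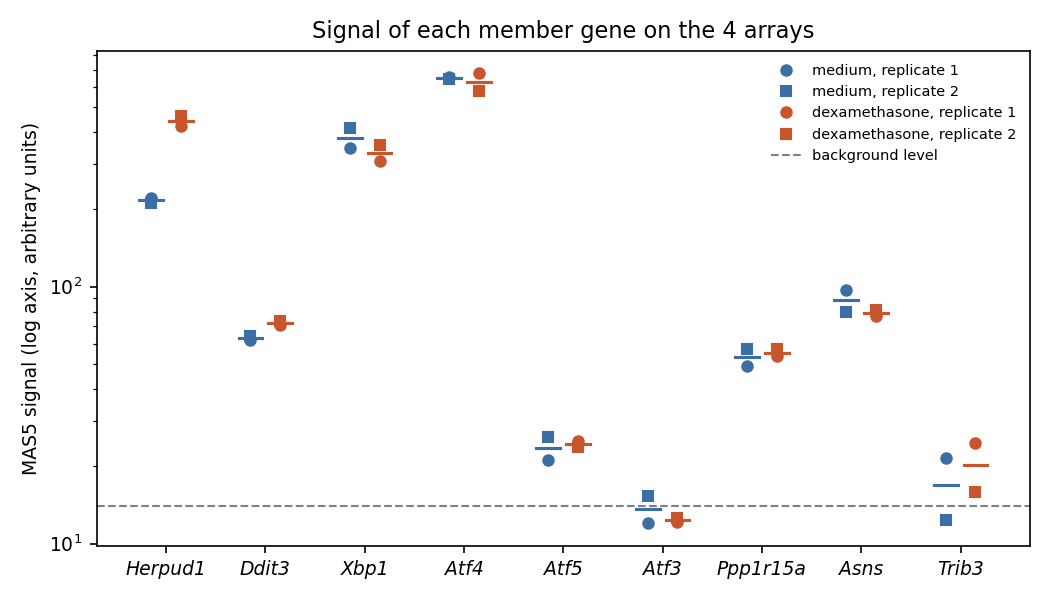
MAS5 signal (vertical log axis, arbitrary units) of the 9 members on the 2 medium arrays (blue) and the 2 dexamethasone arrays (orange), with circles for replicate 1, squares for replicate 2, short lines for group means and a dashed line for the background of 14.0. The dexamethasone arrays of Herpud1, at 420.9 and 464.0, stand clear of its medium arrays, while the groups of the other genes meet or lie close together.

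The Herpud1 difference was lowest, 0.57, when arrays were scaled to the hybridization controls, still past the threshold (limma adjusted p = 0.0144). Without the variance trend of the fit the call was lost (limma adjusted p = 0.0656), a setting in which 19 genes of all tested were called. The 3 tested genes nearest to Herpud1 in pattern, by Euclidean distance over the 4 arrays after each gene was centred on its own mean log2 signal, were Txnip at 0.07, Las1l at 0.08 and Samhd1 at 0.13. Txnip, which encodes an inhibitor of thioredoxin, read 621.4 and 599.9 in medium and 1257 and 1331 with dexamethasone.

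Among the transcription factors no member passed. Ddit3, which encodes the death-linked factor CHOP, read 61.8 and 64.0 in medium and 70.7 and 73.7 with dexamethasone. Both dexamethasone arrays were above both medium arrays, but by a small step. The log2 difference was 0.20 ± 0.12, with an interval from -0.09 to 0.48 (limma adjusted p = 0.409), and it turned to -0.26 with scaling to the hybridization controls.

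Xbp1, the target of Ire1 splicing, read 348.1 and 413.5 in medium and 308.2 and 357.2 with dexamethasone. The groups overlapped, and the log2 difference of -0.19 ± 0.11 did not pass (limma adjusted p = 0.403). This probe set gives a signal for the gene, and its deposited value does not separate spliced from unspliced mRNA.

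Atf4, the factor translated when eIF2 is phosphorylated, read 655.1 and 644.2 in medium and 678.1 and 577.5 with dexamethasone. The medium arrays fell between the dexamethasone arrays. The log2 difference was -0.05 ± 0.09 with an interval from -0.27 to 0.16 (limma adjusted p = 0.796). Because this factor is controlled mainly in translation, its mRNA level is no measure of its activity.

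Atf5, a relative of Atf4 with similar translational control, was at 21.2 and 26.1 in medium and 25.0 and 23.8 with dexamethasone. Its dexamethasone arrays lay between its medium arrays, and the log2 difference was 0.05 ± 0.21. Atf3, a stress-induced relative that acts largely as a repressor, had 3 probe sets, all near or in background. The brightest read 12 and 15.3 in medium and 12.1 and 12.6 with dexamethasone, and a single medium array exceeded 14.0. The second lay between 3.4 and 12.3 and the third between 0.9 and 1.3 over all arrays, so Atf3 gave no level that could be compared.

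The effectors downstream of these factors gave overlapping groups. Ppp1r15a, or GADD34, which directs a phosphatase to eIF2 and so restores translation, read 49.2 and 57.2 in medium and 53.7 and 57.1 with dexamethasone. Its log2 difference was 0.06 ± 0.14, with an interval from -0.28 to 0.40. Asns, the asparagine synthetase and a standard readout of Atf4 activity, read 97.3 and 79.9 in medium and 76.6 and 81.2 with dexamethasone. One medium array was above the other 3 arrays of Asns, which lay close together, and the log2 difference was -0.16 ± 0.13. Its other probe set was in background, between 1.0 and 4.1. Trib3, a pseudokinase that binds Akt and Atf4, read 21.5 and 12.4 in medium and 24.6 and 15.8 with dexamethasone. Its arrays differed as much within groups as between them, 1 medium array was in background, and the interval of the difference ran from -0.59 to 1.10.

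**Figure D2:**
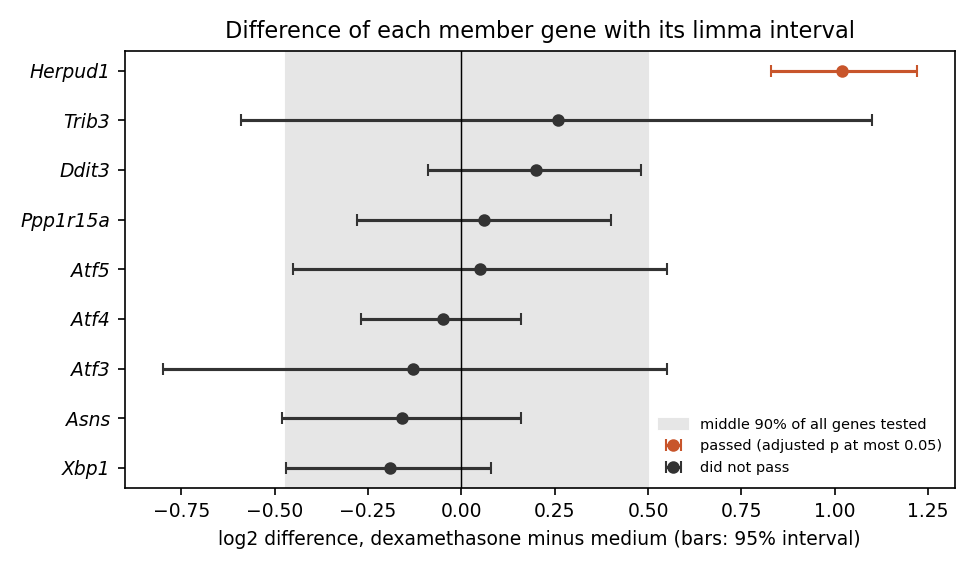
Log2 difference, dexamethasone minus medium, of each of the 9 members (horizontal axis) with its 95% limma interval as a bar; orange marks the member that passed and the grey band holds the middle 90% of all genes tested, from -0.47 to 0.50. Herpud1 at 1.02 lies outside the band, and the other 8 lie inside it, between -0.19 and 0.26; Atf3 was in background on 3 of its 4 arrays.

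Of the 9 members tested, 1 rose and 0 fell in limma. An unadjusted limma p under 0.05 was found for 1 of the 9, against 1111 of all 5582 genes tested. All 9 passed the filter on low signals, Atf3 and Trib3 at its lower end. Over all 5582 genes, 218 changed, or 3.91%, of which 105 rose (1.88%) and 113 fell (2.02%). With centring on array medians 92 rose and 162 fell, and hybridization control scaling gave 43 rises and 2498 falls. Under that last scaling 3 members fell, Xbp1 by 0.65, Asns by 0.61 and Atf4 by 0.51 on the log2 scale, beside the shift of -0.45 in the median of all genes. The groups did not overlap for 2 of 9 members, Herpud1 and Ddit3, against 50.5% of all genes. The median difference of the members was 0.05 and their median absolute difference 0.16, against 0.00 and 0.16 for all genes tested. The 8 other members had differences from -0.19 to 0.26, with limma adjusted p from 0.403 to 0.921. The intervals of 7 of them ended at or below 0.55, under the lower end of the Herpud1 interval, and that of Trib3 reached past it. Atf3 is counted here by its fitted value, which is no measured size because 3 of its 4 arrays were in background. The interval of Trib3 reaches 1.10 and that of Atf5 0.55. Those of Ddit3 and Ppp1r15a reach 0.48 and 0.40, and those of Xbp1 and Asns reach down to -0.47 and -0.48. The data therefore do not show that any of the 8 other members was unaffected.

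The partners of the members in the same pathways were read from 6 lists of 132 genes, without the members, of which 108 had a probe set and 91 were tested. Of these 91, 2 rose, 0 fell in limma, and their median difference was -0.01. That count is read against the 1.88% of all genes that rose, and so few genes give no result about the lists. Counts of higher and lower genes in each list are read against the 50.1% of all genes tested that were higher.

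Among 12 tested genes of the stress sensors and of the eIF2 kinases and phosphatases, Mbtps1 rose. It encodes the site-1 protease, which cuts Atf6 and the sterol regulator SREBP in the Golgi. It read 316.3 and 333.9 in medium and 436.0 and 486.2 with dexamethasone, so both dexamethasone arrays were above both medium arrays. The log2 difference was 0.50 ± 0.08 (limma adjusted p = 0.0285). The call was lost when any single array was left out, with differences of 0.42 to 0.58 and limma adjusted p of 0.0653 to 0.199, and hybridization control scaling gave a difference of 0.05. Eif2ak3, which encodes Perk, read 96.5 and 94.9 in medium and 93.2 and 110.3 with dexamethasone, and did not pass. Eif2ak4, which encodes Gcn2, was in background on all arrays, at 6.7 to 13.5. The sensor genes Atf6 and Ern1, which encodes Ire1, were not among the 12 tested.

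Of 17 tested endoplasmic reticulum chaperones and folding enzymes, 11 were higher and 6 lower with dexamethasone, against 50.1% higher among all genes tested. Of the 17, 0 passed, and the median difference was 0.11. Hspa5, which encodes BiP, the chaperone that restrains all 3 stress sensors, read 289.3 and 273.2 in medium and 354.3 and 402.6 with dexamethasone. The groups did not overlap, and the log2 difference of 0.42 ± 0.09 lay just outside the threshold (limma adjusted p = 0.0554). It passed in 4 of 16 alternatives, with adjusted p from 0.0395 to 0.897, and was -0.03 with scaling to the hybridization controls. Pdia3, a disulfide isomerase that works with calreticulin, had a log2 difference of 0.47 ± 0.17, and its signals were 61.7 and 72.9 in medium and 107.1 and 80.7 with dexamethasone. The ERSE letters stood before 10 of the listed genes, 7 of which were tested, Hspa5 among them. Of these 7, 4 were higher, 0 passed, and the median difference was 0.13. The median was 0.08 for all 10 tested genes with the motif, which include these 7, and 0.00 for all genes tested. Of 106 tested genes with CARE, Herpud1 among them, 7 rose, against 1.88% of all genes tested, and the median difference was -0.01. Of 4 tested genes with ERSE-II, 1 rose, which was Herpud1, and the median was 0.03. The part of these motifs in the differences was not tested.

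**Figure D3:**
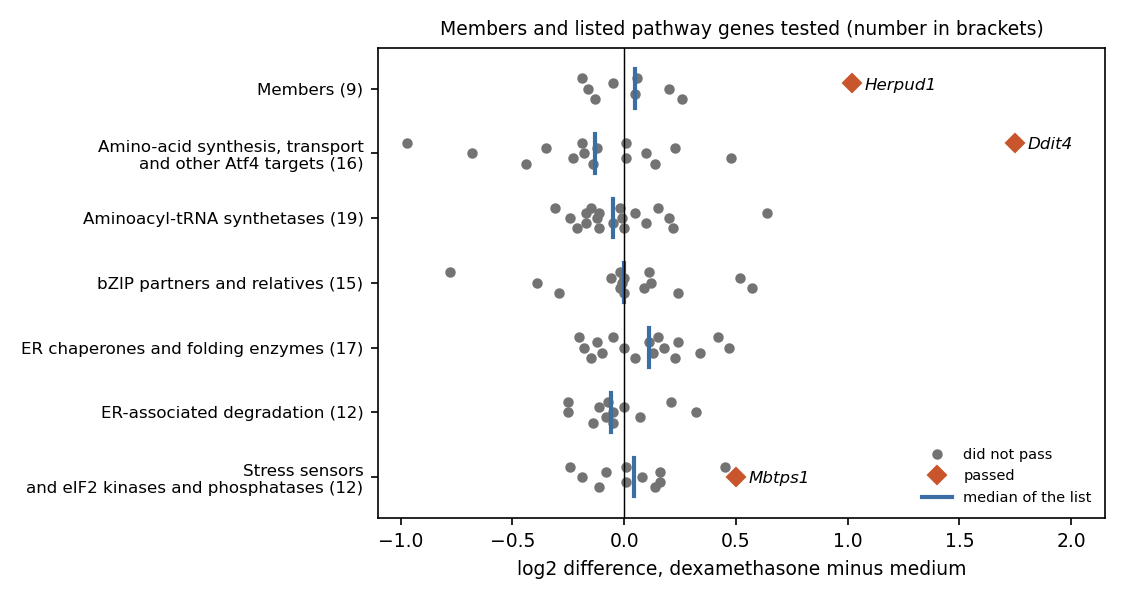
Log2 difference, dexamethasone minus medium (horizontal axis), of every tested gene among the members and in each of the 6 lists of pathway partners, with the number tested in brackets, list medians as blue lines and genes that passed as orange diamonds. Herpud1, Ddit4 and Mbtps1 are the 3 genes that passed, and the list medians lie between -0.13 and 0.11.

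In degradation at the endoplasmic reticulum, the process in which Herpud1 acts, 0 of 12 tested partners passed and 8 were lower. By their brightest probe sets, the largest differences were 0.32 ± 0.15 for Selenos, a membrane selenoprotein of the degradation complex, and -0.25 ± 0.12 for Ubqln1, a shuttle of ubiquitinated proteins. The dimmer probe set of Ubqln1 had a difference of -0.45, from 190.7 and 212.9 to 135.4 and 160.2, and the mean of its probe sets gave -0.35 (limma adjusted p = 0.0629). The groups did not overlap for 5 of the 12 genes, against 50.5% of all genes.

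Of 15 tested bZIP factors that pair with or resemble the Atf proteins, 0 passed. Cebpb, a dimer partner of Atf4 and Ddit3, read 12.4 and 13.7 in medium and 20.9 and 18.9 with dexamethasone, so its medium arrays were in background (limma adjusted p = 0.257). Fosl2 read 18.6 and 16.4 in medium and was in background with dexamethasone, at 12.5 and 7.6 (limma adjusted p = 0.252). With a group of each in background, the sizes of these differences were not measured.

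Among 16 tested genes of amino-acid synthesis and transport and other Atf4 targets, Ddit4 rose 3.37-fold, from 517.9 and 555.4 in medium to 1862 and 1755 with dexamethasone. Ddit4 inhibits mTORC1 and is also a known direct target of the glucocorticoid receptor. The other 15 genes did not pass, and 9 of the 16 were lower, with a list median of -0.13.

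Of 19 tested aminoacyl-tRNA synthetases, which charge tRNAs and are a further group of Atf4 targets, 0 passed and 12 were lower, with a median difference of -0.05. Kars, for lysine, had the largest difference, 0.64 ± 0.24, at signals of 13.6 to 24.9 (limma adjusted p = 0.206). Its lower medium array, at 13.6, was in background, so the size of this difference is uncertain. Nars, for asparagine, had a difference of -0.31 ± 0.19, with overlapping groups.

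**Figure D4:**
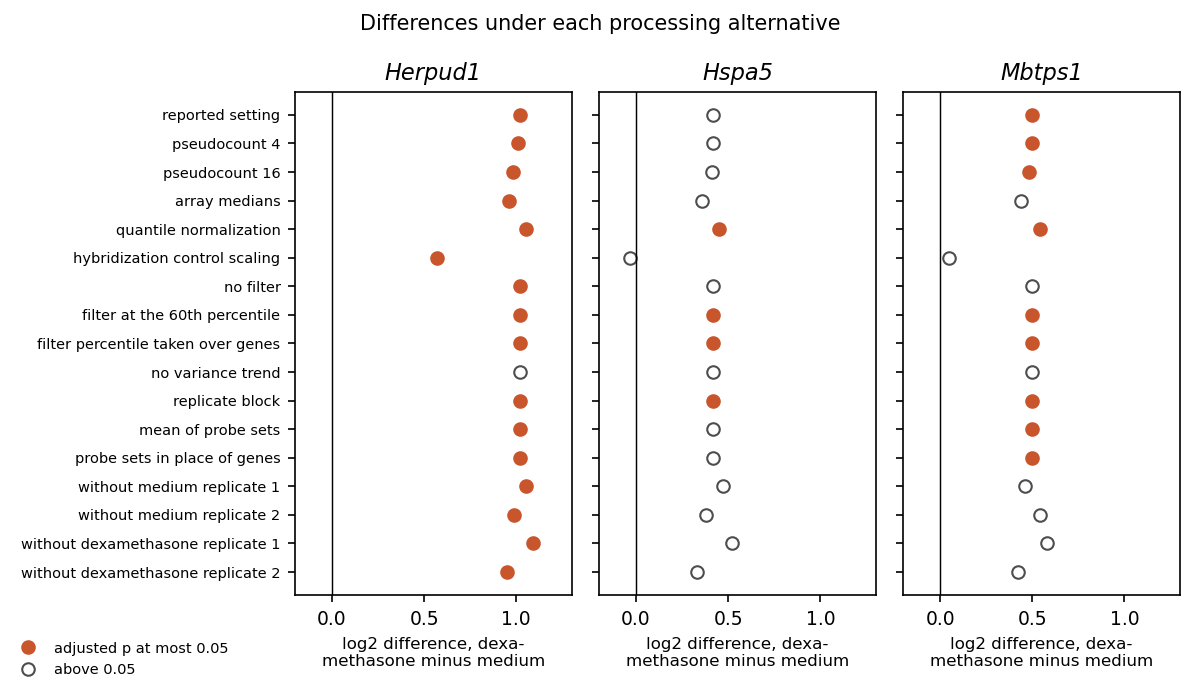
Log2 difference, dexamethasone minus medium (horizontal axis), of Herpud1, Hspa5 and Mbtps1 under the reported setting and 16 alternatives (vertical axis), with filled points where the adjusted p was at most 0.05. Herpud1 passed in 15 of 16 alternatives, Mbtps1 in 8 and Hspa5 in 4, and all 3 were lowest with scaling to the hybridization controls.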

How the data were processed

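RNA of 4 samples was measured on Affymetrix arrays. The deposited values are linear signal intensities. The submitters' processing notes name MAS5, and its version and settings are not given in the sources used here. All arrays shared a trimmed mean (2% cut from each end) of 100.06 to 100.07. The table held 12488 probe sets, 66 of them controls, and 0 columns of other samples. The rest named 1 gene (10833), several (396) or none (1193) in the platform annotation, and 10817 of the first kind were found in the RefSeq gene table by gene ID. Each gene was represented by its brightest probe set, and genes at or under the 40th percentile of mean log2 signal over all probe sets were left out, which left 5582. Values were log2(signal + 1), which understates changes of dim genes. Groups were compared with limma 3.58.1 in R 4.3.3 (lmFit, eBayes with a trend), two-sided, Benjamini-Hochberg adjusted over all genes, threshold 0.05. No permutation test was used, since 2 arrays against 2 cannot give a two-sided p under 0.333. The fit was tested on simulated data. Members, lists and alternatives were chosen with earlier results of these data known. Named were all members, list genes that passed, otherwise the 2 of a list with the largest difference, and the 3 genes nearest to each member that passed. Eif2ak3, Eif2ak4, Cd8b1 and Rag1 were named after their values were seen. The number of arrays limits the precision. Coordinates are given for RefSeq promoters only, in GRCm38.p6.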

Additional observations from a re-analysis of the deposited data

How the results depend on the processing

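Herpud1 kept its direction in all 16 alternatives and its call in 15, with log2 differences of 0.57 to 1.09 and limma adjusted p of 0.00179 to 0.0656. Without the variance trend 0 members rose, and leaving out any array left 1. The number of genes called was the most variable value: 218 became 2541 with scaling to the hybridization controls, 116 without a filter, 19 without the variance trend, 353 with a replicate block and 32 to 78 when an array was left out. With scaling to the hybridization controls 3 members and 44 listed genes fell, in place of 0. The 2 rises among listed genes became 1 with that scaling, with centring on array medians, without a filter, without the variance trend and when any array was left out (1 to 1). In each of these Mbtps1 was lost and Ddit4 remained. Beyond what each alternative does by construction, the cause was not tested.

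Scaling to the hybridization controls, which lowers every gene alike, turned the sign for Ddit3 (-0.26), Atf5 (-0.40), Ppp1r15a (-0.39), Trib3 (-0.20), Hspa5 (-0.03) and Selenos (-0.13). Atf5 was at -0.01 with array medians and with quantile normalization. Leaving out an array gave -0.29 to 0.04 for Atf3, -0.17 to 0.06 for Atf4, -0.09 to 0.19 for Atf5, -0.05 to 0.17 for Ppp1r15a and -0.12 to 0.63 for Trib3. None of these differences passed in any setting that turned its sign. The filter percentile taken over genes was added after the data were seen. It left 4950 genes, without Atf3 and Trib3, and called 241. The deviations of same-numbered extracts had a correlation of 0.034 across all probe sets, dim ones included, and the replicate block is given here only. In both groups replicate 1 was above replicate 2 in the mean log2 hybridization controls (8.13 and 7.96 in medium, 8.59 and 8.40 with dexamethasone). The actin ratio had the same order in both groups, and the Gapdh ratio did not. Whether same-numbered extracts form pairs was not tested. The replicate block changed no call among the members and added that of Hspa5 (limma adjusted p = 0.0437). Signals near background limit Atf3, Trib3 and Atf5.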
